A study of Mus musculus with 4 samples.

Results

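The genes described here are 43 interferon-stimulated genes, the set that cells switch on when interferon signals to them. They were chosen by name, with earlier results of these data known. Their shares beside those of all genes are therefore descriptions, and no test of the set was made. For each gene, the probe sets that the platform annotation assigns to that gene alone were taken. Where a gene had several, the one brightest on average across the 4 arrays stood for it. A probe set was found for 41 of the 43 genes, among 18193 genes represented on the array. Isg15 was found only on a probe set that also names a second gene, Ifi44 had no probe set assigned to it, and no level is given for either. The arrays were made from T29, a mouse thymic lymphoma cell line that is deficient in Ikaros, a transcription factor of lymphocytes. All samples carried MigR1-MLER, a retroviral construct for an inducible, dominant-negative form of Mastermind, the co-activator through which Notch receptors drive transcription. Cells received 100 nM 4OHT (2 samples), the tamoxifen metabolite that activates the construct, or ethanol, its solvent (2 samples), for 24 h. The comparison asks which genes depend on Notch in these cells. Samples without the construct were not analysed here, so an effect of the construct and an effect of 4OHT itself cannot be told apart. T29 is 1 cell line, and the labels do not say whether replicates were separate cultures, so the p-values cover only the variation among these 4 samples and may reflect technical variation.

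Type I interferons are secreted when a cell senses foreign nucleic acid. They bind the receptor pair of IFNAR1 and IFNAR2, and the kinases JAK1 and TYK2 then activate a complex that holds STAT2 and IRF9. This complex binds the interferon-stimulated response element in gene promoters. Type II interferon signals through IFNGR1 and IFNGR2 to factors that bind gamma-activated sites. The induced genes encode proteins that block viruses, sense nucleic acids, present antigen and restrain the response itself, and T-lineage cells express many of them at a low level without infection.

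The promoters of 32 of the 43 genes were found in RefSeq (GRCm38.p6), and the 250 bases upstream of each start were searched on both strands for the response element core, which is GAAA, then 2 bases of any kind, then GAAA. It was present for 12 of these 32 genes (37.5%), against 3.46% of the 27025 genes with a promoter in the table. Stretches of 70 bases are shown for 3 genes whose values lay higher on both 4OHT arrays (Gbp2, Stat2 and Bst2) and for 2 classical members of the list that were too dim to test (Ifit1 and Ifit3). These 5 genes were picked after their values were seen, and only genes that hold the core could be shown. That all 5 hold it is therefore not a result. Mx1, Usp18, Zbp1 and Mx2, which are called higher below, had no promoter in the table. Among tested members with a promoter, the core was present for 5 of 9 whose values were higher on both 4OHT arrays, 2 of 6 whose values were lower on both, and 1 of 7 whose groups overlapped. Whether these shares differ from each other was not tested. Eif2ak2, Ddx58, Isg20 and Sp100 are the 4 of the 9 without it. Gbp3 and Rsad2 are the 2 of the 6 with it, and their stretches are not shown. Capitals mark the core on the strand shown, which reads TTTC, 2 bases, TTTC where the element lies on the other strand.
Gbp2, chr3:142620574-142620643, plus strand: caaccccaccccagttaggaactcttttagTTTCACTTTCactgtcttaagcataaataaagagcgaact
Stat2, chr10:128270248-128270317, plus strand: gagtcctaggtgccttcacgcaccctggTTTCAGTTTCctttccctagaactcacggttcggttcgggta
Bst2, chr8:71537560-71537629, minus strand: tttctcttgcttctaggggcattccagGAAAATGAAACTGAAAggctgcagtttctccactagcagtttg
Ifit1, chr19:34640764-34640833, plus strand: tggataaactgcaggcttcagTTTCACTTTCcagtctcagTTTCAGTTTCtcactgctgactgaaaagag
Ifit3, chr19:34583360-34583429, plus strand: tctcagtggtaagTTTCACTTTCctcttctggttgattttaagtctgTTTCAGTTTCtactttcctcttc
Gbp2 and Stat2 hold 1 core each, Ifit1 and Ifit3 hold 2 each, and the 2 cores of Bst2 overlap. These matches describe the letters of the promoters and not a bound site.

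Of the 41 genes with a probe set, 31 were bright enough to test, with a mean log2 value of at least 4.81, and 10 lay below that floor. With 4OHT, 5 of the 31 rose and 0 fell in limma at an adjusted p under 0.05. The 5 were Mx1, Usp18, Sp100, Zbp1 and Mx2, and they were 16.1% of the members tested. Over all 11581 genes tested, 3.9% were called higher and 3.57% lower, 7.47% in either direction. The median difference, 4OHT minus ethanol, was 0.17 on the log2 scale for the 31 members and -0.01 for all genes tested. At an unadjusted p under 0.05, 10 members were higher and 0 lower, where the backgrounds were 12.3% and 13.2%. The calls rest on all 4 arrays: with any 1 array left out, some or all member calls were lost. Most calls on the whole array were lost in these fits too. The member median was then 0.11 to 0.18. Whether a changed number of cells of a type or changed RNA per cell lies behind a difference cannot be told apart in bulk RNA.

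**Figure D1:**
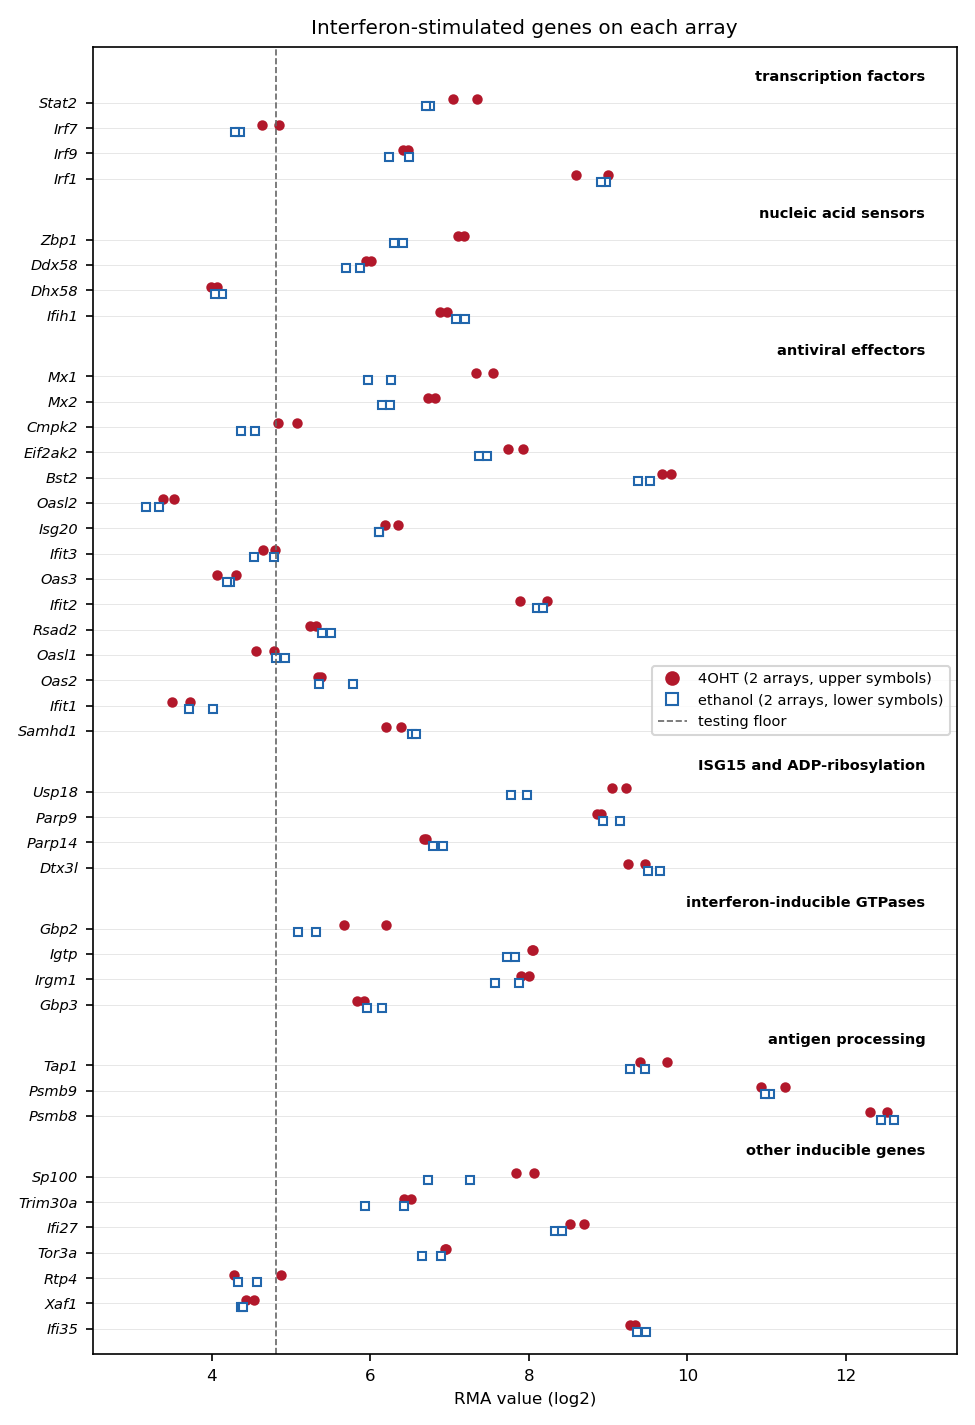
Log2 RMA values of the 41 members with a probe set, grouped by role, on the 2 4OHT arrays (filled circles, upper) and the 2 ethanol arrays (open squares, lower); the dashed line is the testing floor of 4.81. Both circles lie to the right of both squares for 15 of the 31 tested members (48.4%, against 26.7% of all genes tested). Mx1, Usp18, Zbp1, Sp100, Gbp2 and Mx2 are among them. Both circles lie to the left of both squares for 8 (25.8%, against 30.2% of all genes tested). In most members not named here the symbols lie close together, and 10 members average below the floor.

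Among the antiviral effectors, 2 of 9 tested genes rose (22.2%, against a background of 3.9%), and 6 more were below the floor. Mx1, a dynamin-like GTPase that blocks influenza viruses in the mouse nucleus, had log2 values of 7.55 and 7.34 with 4OHT, against 5.97 and 6.26 with ethanol. The groups were apart by more than 1 log2 unit. Mx1 was 2.51-fold higher with 4OHT (difference 1.33 ± 0.14 SE, limma adjusted p = 0.0124).

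Mx2, its paralog, had values of 6.82 and 6.73 with 4OHT and 6.15 and 6.24 with ethanol. It was 1.49-fold higher with 4OHT (0.58 ± 0.09 SE, limma adjusted p = 0.0292). The annotation assigns each of these probe sets to 1 gene, and whether the paralogs' RNAs cross-hybridise was not tested. Both 4OHT arrays exceeded both ethanol arrays for Mx1 and for Mx2.

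Eif2ak2 encodes PKR, the kinase that halts translation when it binds double-stranded RNA. It stood at 7.93 and 7.74 with 4OHT and at 7.38 and 7.48 with ethanol, and did not pass (0.41 ± 0.11 SE, limma adjusted p = 0.0829). Its 2 further probe sets differed by 0.12 and 0.27. Bst2, the tetherin that holds budding viruses at the cell surface, was at 9.79 and 9.69 with 4OHT and 9.53 and 9.38 with ethanol (0.28 ± 0.10 SE, limma adjusted p = 0.152). The groups did not overlap for either gene, but neither difference passed.

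Samhd1, a dNTP hydrolase that starves viruses of nucleotides, lay the other way, at 6.40 and 6.20 with 4OHT and 6.52 and 6.58 with ethanol (-0.26 ± 0.10 SE, limma adjusted p = 0.198). Its probe set carries the _x_at suffix, which marks probes that may also read other transcripts. Without such probe sets its difference was -0.17, from the next brightest one.

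The IFIT genes, Rsad2 and the oligoadenylate synthetase genes did not pass or were too dim to test. Ifit1, an RNA-binding translation inhibitor, was at 3.73 and 3.50 with 4OHT and 4.02 and 3.71 with ethanol, below the floor on every array. Ifit3, its partner in the IFIT complex, was at 4.65 and 4.80 with 4OHT and 4.53 and 4.79 with ethanol. Their groups overlapped, and both promoters shown above hold the response element core.

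Ifit2, of the same family, was well above the floor with overlapping groups, at 7.89 and 8.23 with 4OHT and 8.10 and 8.18 with ethanol. Rsad2, the viperin gene, was at 5.31 and 5.25 with 4OHT and 5.39 and 5.51 with ethanol (limma adjusted p = 0.316). The oligoadenylate synthetase gene Oas2, whose product activates RNase L, had overlapping groups (-0.21 ± 0.15 SE). Oas3, Oasl1 and Oasl2 were below the floor.

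Cmpk2, a mitochondrial nucleotide kinase gene, averaged below the floor. Its values were 4.83 and 5.08 with 4OHT and 4.37 and 4.55 with ethanol, so its groups were apart, but it was not tested. Isg20, an RNA exonuclease gene, differed by 0.16 ± 0.09 SE.

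**Figure D2:**
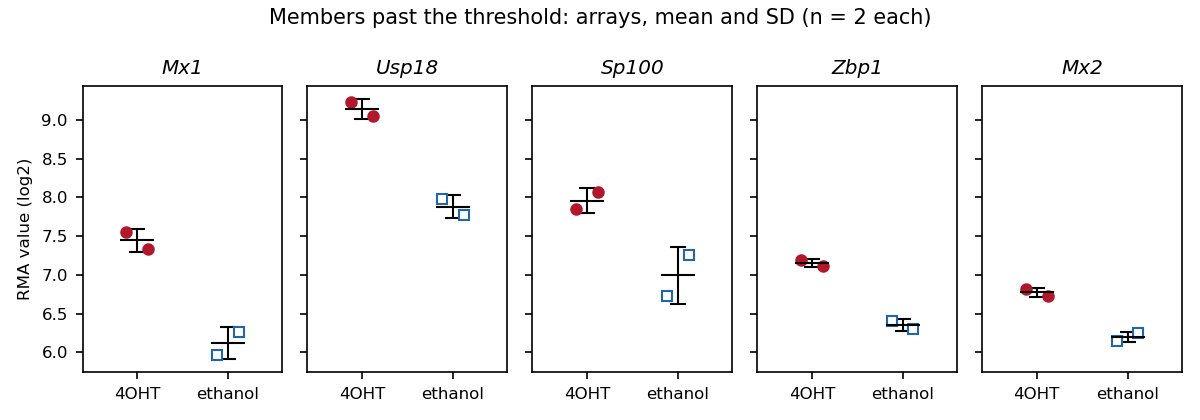
Log2 RMA values of the 5 members that passed the threshold, with 4OHT (circles, left) and with ethanol (squares, right); bars show the mean and SD of 2 arrays. In each panel both 4OHT arrays lie above both ethanol arrays, and the ethanol arrays of Sp100 are the widest apart, at 6.73 and 7.25.

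Among the genes of ISG15 conjugation and ADP-ribosylation, 1 of 4 tested genes rose (25%, against a background of 3.9%). Usp18 encodes the protease that removes ISG15 from proteins and also blocks the type I interferon receptor. It had values of 9.23 and 9.04 with 4OHT, against 7.98 and 7.77 with ethanol, and the 2 values within each group were close. It was 2.39-fold higher with 4OHT (1.26 ± 0.12 SE, limma adjusted p = 0.0109), the lowest adjusted p among the 31 members.

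The other tested genes of this role were slightly lower on both 4OHT arrays, and none passed. Dtx3l, a ubiquitin ligase of the Deltex family, was at 9.25 and 9.47 with 4OHT and 9.51 and 9.66 with ethanol (-0.22 ± 0.11 SE, limma adjusted p = 0.288). Parp9, its binding partner, differed by -0.16 ± 0.11 SE, and the ADP-ribosyltransferase gene Parp14 by -0.17 ± 0.09 SE.

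Zbp1 was the 1 of 3 tested nucleic acid sensors that rose (33.3%, against a background of 3.9%). It encodes a sensor of Z-form nucleic acid that can trigger cell death. Its values were 7.19 and 7.11 with 4OHT and 6.41 and 6.30 with ethanol, a 1.74-fold difference (0.80 ± 0.09 SE, limma adjusted p = 0.0163). A second, dimmer probe set for Zbp1 differed by only 0.13, at 6.04 and 5.90 with 4OHT and 5.80 and 5.89 with ethanol. The probe sets therefore differed in size of change, and the mean of both still passed (0.46, limma adjusted p = 0.0348).

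The cytosolic RNA sensors lay on either side of 0. Ddx58, which encodes RIG-I, was at 5.94 and 6.01 with 4OHT and 5.87 and 5.69 with ethanol (0.20 ± 0.10 SE, limma adjusted p = 0.288). Ifih1, which encodes MDA5, was at 6.88 and 6.96 with 4OHT and 7.20 and 7.08 with ethanol (-0.22 ± 0.09 SE, limma adjusted p = 0.222). Neither passed, and Dhx58, a regulator of both sensors, was below the floor.

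None of the 3 tested transcription factor members passed in limma, and 1, Stat2, was higher at an unadjusted p under 0.05 (33.3%, against a background of 12.3%). Stat2, a transcription factor of type I signalling, was at 7.35 and 7.05 with 4OHT and 6.76 and 6.70 with ethanol (0.47 ± 0.12 SE, limma adjusted p = 0.0846). Its second probe set differed by 0.34. Irf9, the DNA-binding subunit of the same complex, had overlapping groups and differed by 0.08 ± 0.11 SE.

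Irf1, a factor induced by type II interferon, was at 8.997 and 8.60 with 4OHT and 8.97 and 8.91 with ethanol (-0.14 ± 0.15 SE, limma adjusted p = 0.59). Its groups overlapped, and its difference was 0.057 without 4OHT replicate 2, so its sign rests on that array. Irf7, which amplifies type I interferon production, averaged below the floor, at 4.64 and 4.85 with 4OHT and 4.35 and 4.30 with ethanol. It was not tested.

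No interferon-inducible GTPase passed among 4 tested in limma, and 2 were higher at an unadjusted p under 0.05 (50%, against a background of 12.3%). Gbp2, a guanylate-binding protein that attacks pathogen vacuoles, was at 6.19 and 5.67 with 4OHT and 5.31 and 5.09 with ethanol. Its 1.66-fold difference (0.73 ± 0.19 SE) had a limma adjusted p of 0.0841, and the 4OHT arrays differed from each other by more than the ethanol arrays did. A second Gbp2 probe set differed by 0.61, and the mean of both passed (0.67, limma adjusted p = 0.0427).

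Gbp3, from the same gene cluster, lay slightly the other way (-0.17 ± 0.10 SE, limma adjusted p = 0.355). Igtp, an immunity-related GTPase, was at 8.03 and 8.05 with 4OHT and 7.83 and 7.72 with ethanol (0.27 ± 0.09 SE, limma adjusted p = 0.133). Irgm1, a regulator of that family, differed by 0.23 ± 0.13 SE.

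None of the 3 antigen processing members passed. Psmb8, a catalytic subunit of the immunoproteasome, was at 12.51 and 12.30 with 4OHT and 12.60 and 12.44 with ethanol. Psmb9, another such subunit, was at 11.23 and 10.93 with 4OHT and 11.04 and 10.98 with ethanol. Tap1, a chain of the peptide transporter, was at 9.74 and 9.41 with 4OHT and 9.47 and 9.28 with ethanol. The groups overlapped for all 3, none passed in limma, and 0 were past an unadjusted p of 0.05, with differences of -0.11 ± 0.12, 0.07 ± 0.12 and 0.20 ± 0.14 (SE) for Psmb8, Psmb9 and Tap1.

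Of the 5 other members tested, Sp100 rose (20%, against a background of 3.9%). It encodes a component of PML nuclear bodies, which restrict viral genomes. Its values were 7.85 and 8.07 with 4OHT, against 6.73 and 7.25 with ethanol, a 1.95-fold difference (0.96 ± 0.19 SE, limma adjusted p = 0.044). A second Sp100 probe set, at 7.88 and 7.84 with 4OHT and 7.05 and 7.05 with ethanol, differed by 0.81. When every probe set was fitted on its own, that second one passed (limma adjusted p = 0.0229) and the first did not (0.0597).

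Sp100 was the 1 gene among the 5 that rose whose promoter was in the table, and its nearest upstream bases are given for that reason. None of the 3 motifs searched, the response element core, the gamma-activated site TTCNNNGAA and the RBPJ core TGGGAA, was found in the 250 bases upstream of either of its 2 starts in the table. RBPJ is the DNA-binding partner of Notch, and its short core was present for 24.1% of all genes with a promoter and for 12 of the 32 members (37.5%). The gamma-activated site was present for 8 of 32 members (25%) and for 8.13% of all genes. The tested members with a promoter were 9 higher on both 4OHT arrays, 6 lower on both and 7 with overlapping groups. In that order, the RBPJ core was present for 2, 2 and 5 of them, and the gamma-activated site for 4, 1 and 3. Differences between these shares were not tested. The RBPJ core can overlap the gamma-activated site, as in Eif2ak2 and Psmb8.
Sp100, chr1:85649868-85649987, plus strand: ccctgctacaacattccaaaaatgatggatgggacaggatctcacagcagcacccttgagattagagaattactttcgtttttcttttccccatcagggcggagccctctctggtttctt

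The remaining members of this role did not pass. Trim30a, a TRIM family regulator, was at 6.42 and 6.51 with 4OHT and 5.94 and 6.43 with ethanol (0.28 ± 0.17 SE, limma adjusted p = 0.355). Its difference was 0.040 without ethanol replicate 1 and 0.53 without ethanol replicate 2, so its size rests on those arrays. Ifi27 was at 8.53 and 8.70 with 4OHT and 8.33 and 8.42 with ethanol (0.23 ± 0.10 SE, limma adjusted p = 0.222). Ifi35 and Tor3a differed by -0.11 ± 0.09 SE and 0.17 ± 0.11 SE, and Rtp4 and Xaf1 were below the floor.

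Most differences across the list were small. The 26 tested members that did not pass ranged from -0.26 to 0.73 on the log2 scale, with limma adjusted p-values from 0.0829 to 0.78. Both 4OHT arrays exceeded both ethanol arrays for 15 of the 31 tested members (48.4%), against a background of 26.7%. Both were below for 8 members (25.8%), against 30.2%. A difference above 0 was found for 19 of 31 (61.3%), where the background was 47.7%. The members at the threshold were Sp100, just inside at an adjusted p of 0.044, and Eif2ak2, the nearest outside at 0.0829. With a threshold of 0.1, Eif2ak2, Gbp2 and Stat2 joined the 5, giving 8 of 31 higher (25.8%) and 0 lower, against backgrounds of 7.37% and 7.12%. Of 20 members with several probe sets, 13 had a further one above the floor, and all 15 such probe sets differed in the same direction as the one used.

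**Figure D3:**
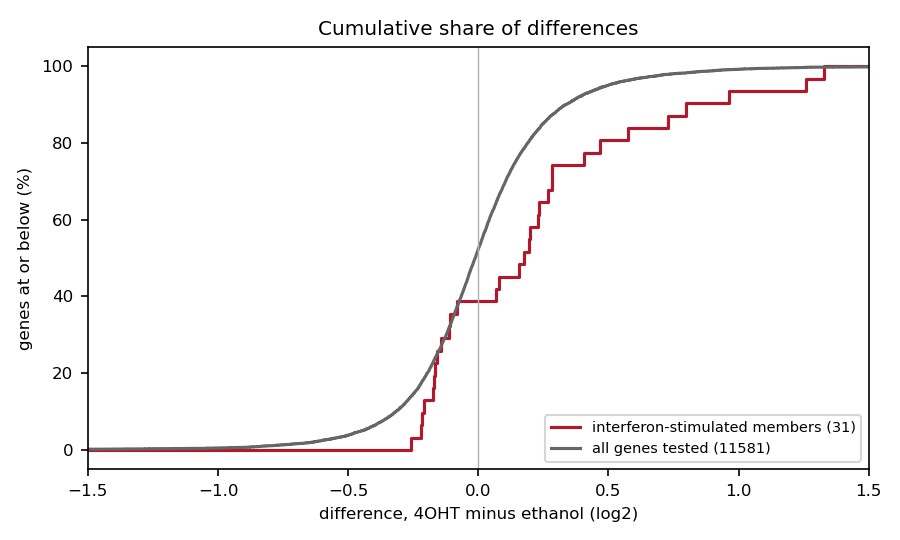
Cumulative share (%) of genes at or below each log2 difference, 4OHT minus ethanol, for the 31 tested members (red) and all 11581 genes tested (grey); the x axis is limited to 1.5 on either side. The red curve lies to the right of the grey one over most of its range, with medians of 0.17 and -0.01, and no member lies below -0.26.

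The genes that carry the interferon signal were examined from lists of ligands, receptors and kinases, STAT and IRF factors, sensors, and inhibitors. Of 37 tested, 4 rose (10.8%) and 1 fell (2.70%), against backgrounds of 3.9% and 3.57%. The receptors and kinases held 3 of the rises among 8 tested genes. All 8 of their differences were above 0, against a background of 47.7%, with a median of 0.46. Il10rb, a receptor chain shared by interleukin-10 and interferon lambda, was at 7.42 and 7.35 with 4OHT and 6.42 and 6.22 with ethanol. It was 2.09-fold higher with 4OHT (1.06 ± 0.10 SE, limma adjusted p = 0.0119), and 0.61 higher on the log2 scale with the mean of its probe sets.

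Ifngr1, the ligand-binding chain of the type II interferon receptor, was at 9.85 and 10.01 with 4OHT and 8.99 and 9.17 with ethanol. It was 1.80-fold higher with 4OHT (0.85 ± 0.11 SE, limma adjusted p = 0.0202). Ifnar1, a chain of the type I receptor, was at 8.42 and 8.52 with 4OHT and 8.06 and 7.94 with ethanol (0.47 ± 0.10 SE, limma adjusted p = 0.0491). Its call was lost, at limma adjusted p-values from 0.0515 to 0.0878, with no filter, either other scaling, the mean of probe sets or no _x_at and _s_at probe sets. It was also lost when any 1 array was left out.

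The kinase genes Jak2 (0.45 ± 0.10 SE, limma adjusted p = 0.055) and Jak1 (0.49 ± 0.14 SE, limma adjusted p = 0.103) did not pass. With any 1 array left out, some or all of the 4 rises over these lists were lost. Most calls on the whole array were lost as well, and the 4 genes kept their direction.

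Irf8, an IRF family factor best known in myeloid and B cells, was at 9.02 and 8.92 with 4OHT and 8.31 and 8.42 with ethanol. It rose 1.52-fold (0.60 ± 0.09 SE, limma adjusted p = 0.0286) and was the 1 of 5 tested STAT and IRF factors that passed (20%, against a background of 3.9%).

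Socs3, an inhibitor of JAK signalling, fell to 8.52 and 8.42 with 4OHT, against 9.17 and 9.11 with ethanol (-0.67 ± 0.09 SE, limma adjusted p = 0.0217). Its call was lost without _x_at and _s_at probe sets (limma adjusted p = 0.0843) and without any 1 array. Socs1, the classical interferon inhibitor of the same family, had overlapping groups, at 7.70 and 6.93 with 4OHT and 7.74 and 6.84 with ethanol. Its replicates differed more than its groups did.

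No interferon gene was called. Of 10 ligand genes with a probe set, 7 were below the floor, among them Ifnb1 and Ifng, and 0 of the 3 tested passed in limma or at an unadjusted p under 0.05. Ifnb1 was at 4.06 and 4.04 with 4OHT and 4.20 and 4.18 with ethanol, and Ifng at 3.03 and 2.95 with 4OHT and 2.87 and 3.10 with ethanol. None of 10 tested sensing genes passed in limma, and 2 were higher at an unadjusted p under 0.05 (20%, against a background of 12.3%). Sting1, the adaptor for cytosolic DNA, was nearest, at 8.51 and 8.48 with 4OHT and 7.94 and 8.12 with ethanol (0.46 ± 0.10 SE, limma adjusted p = 0.0534).

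**Figure D4:**
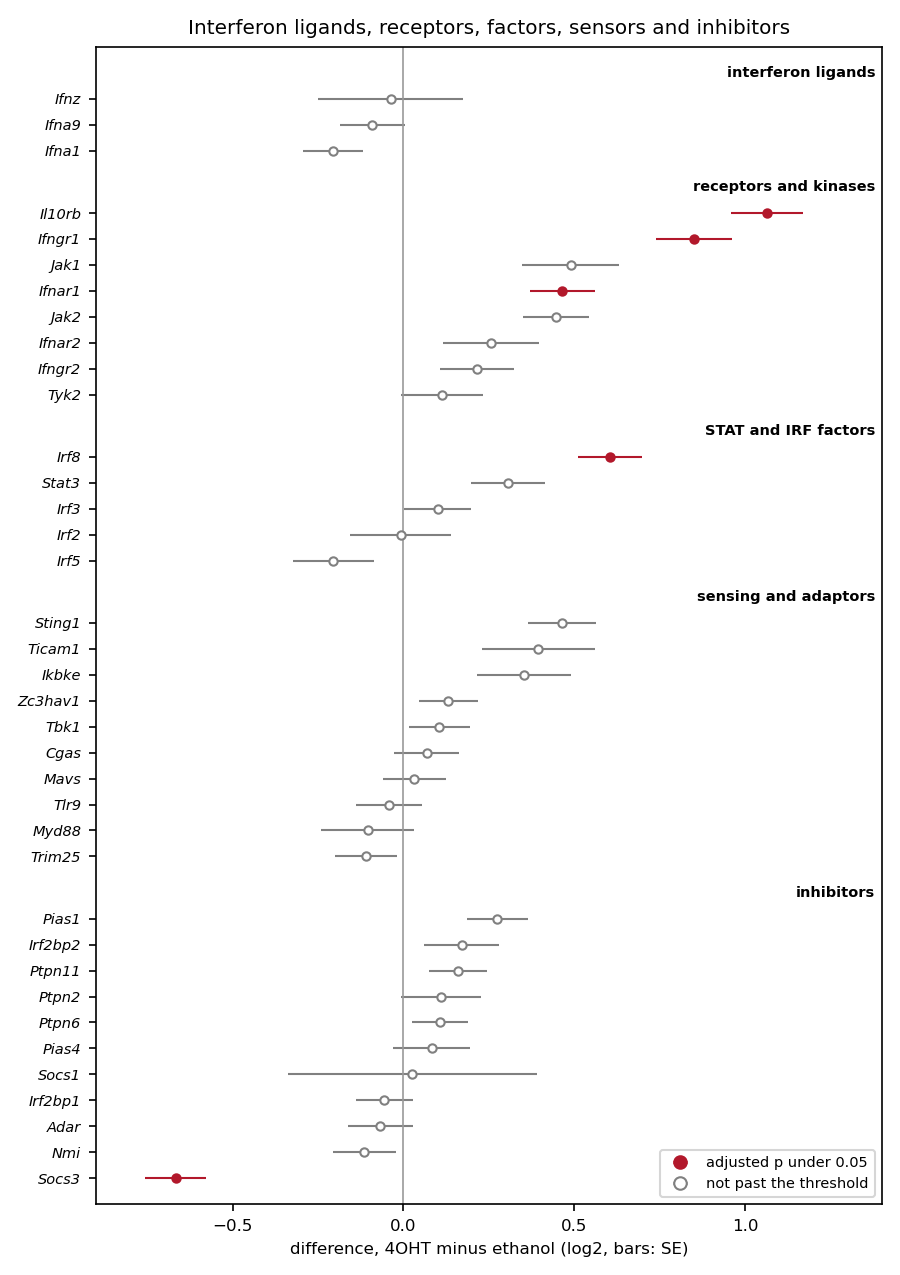
Log2 differences, 4OHT minus ethanol, with limma's SE for the 37 tested genes of the interferon pathway that are not members, by role; filled symbols passed an adjusted p under 0.05. All 8 receptor and kinase genes lie right of 0, and Socs3 at -0.67 is the 1 filled symbol on the left.

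A further list of interferon-inducible genes outside the 43 held calls in both directions. Of its 43 tested genes, 5 rose (11.6%) and 3 fell (6.98%), against backgrounds of 3.9% and 3.57%. Epsti1, named for epithelial stromal interaction, was 1.84-fold higher, at 9.34 and 9.35 with 4OHT and 8.47 and 8.45 with ethanol (0.88 ± 0.08 SE, limma adjusted p = 0.0109). Lgals9, which encodes galectin-9, was 1.56-fold higher (0.64 ± 0.10 SE, limma adjusted p = 0.0266). Trim34a (0.68, limma adjusted p = 0.0311), Cd274, which encodes PD-L1 (0.50, limma adjusted p = 0.0366), and Trafd1 (0.47, limma adjusted p = 0.0469) also rose. With the mean of their probe sets, Trim34a and Trafd1 differed by 0.36 and 0.18 and no longer passed (limma adjusted p = 0.232 and 0.282). The call of Trafd1 was also lost with no filter (limma adjusted p = 0.0622), with quantile normalization (0.0530) and without _x_at and _s_at probe sets (0.0503), and that of Cd274 with quantile normalization (0.0532).

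The p200 family gene Ifi202b fell to 5.22 and 6.15 with 4OHT, against 8.32 and 8.32 with ethanol (-2.64 ± 0.29 SE, limma adjusted p = 0.0151). Its _s_at probe set may read related family members. The aminopeptidase gene Lap3 fell by 0.66 and Isoc1 by 0.43 on the log2 scale (limma adjusted p = 0.0252 and 0.0458). The call of Isoc1 was lost with the mean of its probe sets (limma adjusted p = 0.0673), with no filter (0.0647) and without any 1 array (0.115 to 0.173). With any 1 array left out, most or all rises and falls on this list were lost, as were most calls on the whole array. The genes called on this list kept their direction.

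Arrays correlated more closely within groups (Pearson's r across genes of 0.995 for 4OHT and 0.995 for ethanol) than between them (0.983 to 0.987). All 6 Notch readout genes checked fell, with differences from -3.41 for Dtx1 to -1.39 for Hes1. Each of the 10 T-lineage markers with a probe set was above the floor. Of these, Cd247 and Cd8a rose, and Cd3g and Ptcra fell, in limma at an adjusted p under 0.05. That is 20% in each direction, against backgrounds of 3.9% and 3.57%, and Ptcra is also among the Notch readouts. Of the 27 markers of macrophages, dendritic, B, NK and stromal, epithelial or endothelial cells, 19 were below it. Summed linear values were 240 and 240 with 4OHT and 246 and 247 with ethanol for 7 macrophage markers, 106 and 100 against 107 and 104 for 5 dendritic markers, 114 and 113 against 120 and 125 for 5 B-cell markers, and 54.3 and 49.6 against 51.6 and 55.1 for 4 NK markers. Those of the 6 stromal, epithelial and endothelial markers were 486 and 541 with 4OHT and 320 and 333 with ethanol, mostly from Pecam1, which was at 8.54 and 8.74 with 4OHT and 7.65 and 7.78 with ethanol. In the same list, Pdgfra was also higher on both 4OHT arrays, and Col1a2 and Epcam were lower on both. The macrophage marker Itgam, whose mean was below the floor, was at 4.83 and 4.79 with 4OHT and 4.10 and 3.96 with ethanol. Cd14 lay the other way, at 6.02 and 5.97 with 4OHT and 6.37 and 6.34 with ethanol. Lyz2 was also lower on both 4OHT arrays, and the groups of Adgre1, Cd68, Csf1r and Fcgr1 overlapped. The 3′ minus 5′ difference of the 18S control probe sets also moved with the groups, at 0.90 and 0.82 with 4OHT and 0.05 and 0.32 with ethanol, while that of Actb did not. The part of these marker signals and of the 18S difference in the interferon results was not tested.

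**Figure D5:**
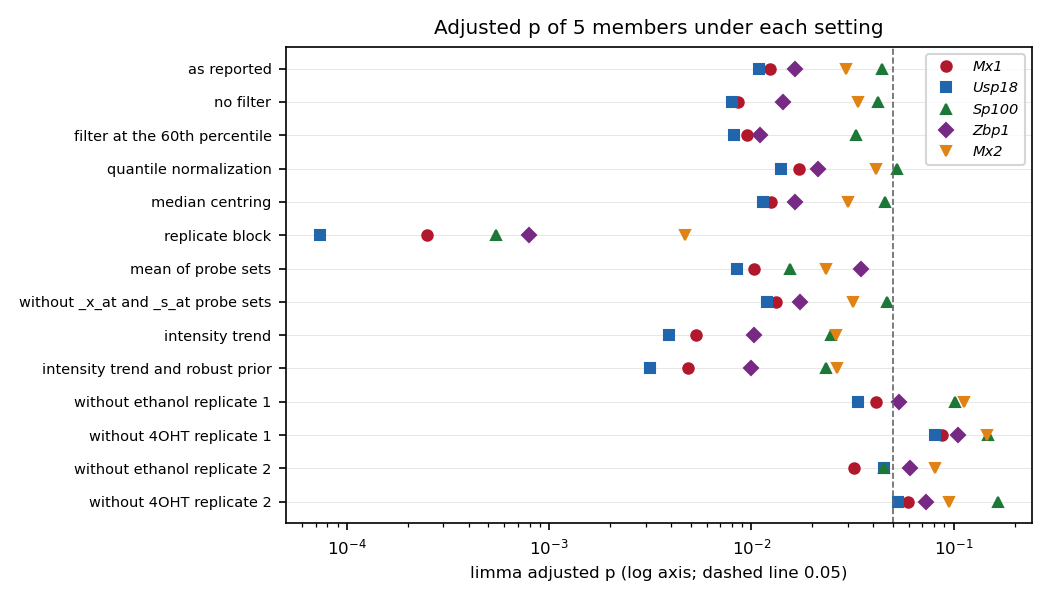
Limma adjusted p (log axis) of the 5 members that rose, as reported and under each alternative; the dashed line is 0.05, and Mx2 has no point at the 60th percentile because it was not tested there. With all 4 arrays the 5 stay left of the line except Sp100 under quantile normalization (0.0526), and without either 4OHT array all 5 lie right of it.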

How the data were processed

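RNA was hybridised to Affymetrix arrays, and the authors deposited RMA values on a log2 scale. RMA is named in the submitters' processing notes without a version, and the log2 scale was read from the values themselves (2.25 to 14.6). RMA gives no detection call. Differences between the groups were taken within a probe set. The floor, the choice of the brightest probe set, the highest means and the marker sums use levels across probe sets, which are less comparable. The 2 arrays per group limit the precision. Of 45101 probe sets, 34945 named 1 gene. A floor at the 40th percentile of these (4.81) left 11581 genes to test. The comparison used limma (version 3.58.1, R 4.3.3), its lmFit and eBayes steps without a trend or block, and Benjamini-Hochberg adjustment over all genes tested. The fit was tested on simulated data under 2 noise models. With each gene's observed spread, the first tried, it missed the target set for recovery of large changes. With limma's moderated spread, tried after that, it met the target, but false calls exceeded the nominal rate of 0.05. Missed changes and false calls are therefore both possible here. Probe symbols of the 41 members matched RefSeq by gene number. Genes were named by a rule: members called, the 12 largest other differences with groups apart, the 5 highest means, and the 2 largest per role. The members and lists were chosen with earlier results of these data known. Other filters, scalings, probe set choices, variance models and a threshold of 0.1 were tried, and each array was left out. A fit of all probe sets was added after seeing the data.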

Additional observations from a re-analysis of the deposited data

How the results depend on the processing

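Of the 5 members that rose, all kept their direction under every alternative in which they were tested. As reported, 5 members and 452 of all genes were higher. With quantile normalization 4 members passed, beside 419 of all genes. With probe sets averaged per gene 6 did, beside 405. With the filter at the 60th percentile, where Mx2 was not tested, 4 did, beside 500. Leaving out 1 array, which leaves 1 residual degree of freedom and assumes that a lone array varies like the other group, gave 0 to 3 member calls, 9 to 125 higher and 12 to 66 lower genes on the whole array, 0 to 2 rises and 0 to 1 falls among the other inducible genes, and 0 to 2 rises and 0 falls among the pathway genes. The member median was 0.11 to 0.18 in these fits, 0.13 with no filter, 0.11 with quantile normalization and 0.13 with the mean of probe sets. No member fell in limma under any alternative. The sign of Psmb9 turned without 4OHT replicate 1 (-0.086, in a range of -0.086 to 0.22 over the 4 arrays left out) and that of Irf1 without 4OHT replicate 2 (0.057, in a range of -0.34 to 0.057).

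At an adjusted p under 0.1, 8 members were higher, 10 other inducible genes were higher, and 853 of all genes were higher and 824 lower. An intensity trend gave 636 lower genes, and with a robust prior 679 were higher and 666 lower. Fitting all probe sets gave 260 lower genes. Raising the filter to the 60th percentile, quantile normalization and averaging probe sets each left 3 rises among the other inducible genes, and leaving out _x_at and _s_at probe sets left 0 falls among the pathway genes. The replicate numbers in the titles are not said to pair the samples, and the deviations of equally numbered arrays from their group means correlated at 0.34. With the replicate number as a block, 8 members, 15 other inducible genes and 7 pathway genes were higher, 5 other inducible genes were lower, and 1104 of all genes were higher and 1031 lower. The causes of these shifts were not tested. The 10 members below the floor have levels near background, where a difference can be understated.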

Other observations

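Several members lie beside each other in the genome, by their order among protein-coding genes in the RefSeq table. Parp14, Dtx3l and Parp9 follow each other on chromosome 16 and differed by -0.17, -0.22 and -0.16 on the log2 scale, 4OHT minus ethanol. Rsad2 and Cmpk2 are direct neighbours on chromosome 12 and differed by -0.17 and 0.50. Gbp3 and Gbp2, on chromosome 3 with 1 gene between them, differed by -0.17 and 0.73. On chromosome 16, the receptor genes Ifnar2, Il10rb, Ifnar1 and Ifngr2 follow each other without another protein-coding gene between them. Their differences were 0.26, 1.06, 0.47 and 0.22, and Il10rb and Ifnar1 passed (limma adjusted p = 0.0119 and 0.0491). Sp100 and its family member Sp110 have 1 gene between them on chromosome 1, and Sp110 was at 7.43 and 7.26 with 4OHT and 7.15 and 7.03 with ethanol (0.25, limma adjusted p = 0.205). These neighbours were chosen after their values were seen, and no test of position was made.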
